A study of Mus musculus with 2 samples.

Results

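The peroxiredoxins and the cytosolic thioredoxin system were described in mouse thymocytes, which are T cells still developing in the thymus. The 8 genes Prdx1, Prdx2, Prdx3, Prdx4, Prdx5, Prdx6, Txn1 and Txnrd1 were taken by their symbols, and all 8 were among the 27933 gene symbols of the count tables. The set was chosen by a measured value, the level of Prdx4 over all cells, which differed between the libraries, so the Prdx4 ratios between genotypes are given as descriptions and support nothing else.

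The study compared 1 wild type library with 1 library whose NMe, an enhancer of the proto-oncogene Myc, carried mutated GATA sites 1 and 2 on both alleles; the latter is called mutant here. Each library was made from a suspension of thymocytes on a 10x Chromium instrument with the 3′ v2 chemistry, which counts a unique molecular identifier (UMI) for each captured end of an mRNA. The labels give no age, sex, strain background or number of mice. With 1 library per genotype there is no replicate check and no test between genotypes, and all intervals below are exact 95% intervals that cover counting error only.

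Sequencing gave 6638880 UMIs in 1346 wild type barcodes (median 3323.5 per barcode) and 6364506 UMIs in 1737 mutant barcodes (median 2596). After filtering, 1340 wild type and 1727 mutant cells remained, and 1 barcode sequence occurred in both libraries. The labelled cell type carried its markers: the summed level of the double-positive (DP) list, which holds Cd4, Cd8a and Rag1, was 2602 UMIs per 1000000 UMIs (CPM) in the wild type library against 2165 in the mutant library. Markers of other cell types were also present and differed between the libraries. The B and antigen-presenting cell list summed to 234 and 678 CPM, the plasma cell list to 140 and 16.2 CPM, the macrophage list to 46.7 and 112 CPM, and the innate-like T and NK list to 79.2 and 215 CPM.

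Peroxiredoxins are enzymes that reduce hydrogen peroxide with a reactive cysteine. PRDX1, PRDX2 and PRDX6 work mainly in the cytosol, PRDX3 in mitochondria, PRDX5 in mitochondria, peroxisomes and cytosol, and PRDX4 in the endoplasmic reticulum, where it also passes oxidising equivalents to protein disulfide isomerases. Thioredoxin, encoded by Txn1, returns most oxidised peroxiredoxins to their reduced form and supplies electrons to ribonucleotide reductase, the enzyme that makes deoxynucleotides, and thioredoxin reductase 1, encoded by Txnrd1, recharges thioredoxin with NADPH. Thymocytes pass from CD4- CD8- early stages through a burst of division into the DP stage, where most cells rest, and then through selection to mature T cells.

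In the mouse build GRCm38, GENCODE places Prdx1 at chr4:116685544-116700822 on the plus strand and Prdx4 at chrX:155323918-155340754 on the minus strand. Prdx2 lies at chr8:84969587-84974834 (+), Prdx3 at chr19:60864051-60874556 (-), Prdx5 at chr19:6906697-6910106 (-) and Prdx6 at chr1:161240112-161251219 (-). Txn1 lies at chr4:57943373-57956411 (-) and Txnrd1 at chr10:82833951-82897712 (+). Prdx2 overlaps Rnaseh2a and Junb, and Prdx5 overlaps Trmt112, each on the opposite strand. The sources used here do not say whether the counting used strand, so reads of Prdx2 and Prdx5 may be shared with these partners. Over wild type and mutant cells Junb had 360 and 733 UMIs, and Prdx2 had 1718 and 1672. The near copy Prdx6b held 6 and 7 UMIs.

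The 250 bases before the transcription start were available from RefSeq (GRCm38.p6) for 7 of the 8 genes, in 9 windows. They are shown for the gene whose level differed most between the libraries and for the genes with a motif of the antioxidant response, the element through which the factor NRF2 acts. Capitals mark the motif match, and each sequence is written on the strand of its gene. The Prdx4 window is chrX:155338461-155338710 (-), which lies inside the span GENCODE gives the gene. The Prdx1 window is chr4:116685349-116685598 (+), and the window of Txnrd1 is chr10:82858956-82859205 (+), one of its 3 starts.
Prdx4: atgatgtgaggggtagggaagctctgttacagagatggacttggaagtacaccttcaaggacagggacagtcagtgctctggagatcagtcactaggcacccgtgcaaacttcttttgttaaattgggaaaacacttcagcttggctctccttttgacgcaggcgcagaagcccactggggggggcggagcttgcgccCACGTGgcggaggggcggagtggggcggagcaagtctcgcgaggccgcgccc
Prdx1: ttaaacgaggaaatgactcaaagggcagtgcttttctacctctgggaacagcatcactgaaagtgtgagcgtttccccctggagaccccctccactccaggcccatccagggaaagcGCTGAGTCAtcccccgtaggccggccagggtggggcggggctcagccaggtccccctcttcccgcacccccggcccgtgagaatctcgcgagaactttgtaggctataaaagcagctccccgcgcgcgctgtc
Txnrd1: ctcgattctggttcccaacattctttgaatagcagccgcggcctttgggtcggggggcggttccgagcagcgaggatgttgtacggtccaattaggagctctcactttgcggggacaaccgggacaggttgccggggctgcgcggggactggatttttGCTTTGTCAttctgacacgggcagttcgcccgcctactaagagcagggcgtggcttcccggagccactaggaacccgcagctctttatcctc
The E-box CACGTG, a motif bound by MYC and related factors, was searched on both strands and was found in the Prdx4 window alone among the 9, at -52 from the start, while 6.02% of 32851 promoter windows of this length held it. The antioxidant response element core TGACNNNGC, in the windows of Prdx1 at -133 and of Txnrd1 at -92, occurred in 10.2% of windows. The endoplasmic reticulum stress response element, CCAAT and CCACG with 9 bases between them, was in none of the 9 and in 0.113% of all windows. A match is a run of letters, and binding was not measured.

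Cells were placed by their own marker UMIs, none of which is one of the 8 genes. A stage needed at least 2 UMIs and 8 per 10000 of its list, in the order mature, early, selected and DP. A phase needed 20 per 10000 of the S list or of the G2 and mitosis (G2/M) list, the larger list giving the phase, and cells below were called resting. Cells below every stage limit are called unmarked, and cells with at least 5 UMIs of another cell type are called other. These groups are ranges of a score and not types: 235 wild type and 488 mutant cells lay between 6 and 10 per 10000 of a stage list, and 29 and 60 cells between 15 and 25 of a phase list.

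The libraries differed in how many cells fell into each range. Wild type first, DP cells in S phase numbered 198 (14.8%) and 78 (4.52%), and DP cells in G2/M numbered 319 (23.8%) and 114 (6.60%). DP resting cells numbered 268 and 398, selected resting cells 161 and 244, mature resting cells 155 and 356, and early resting cells 39 and 181. Depth moved with phase: the median was 2152 and 1764 UMIs in DP resting cells, 5417.5 and 3935 in DP S cells, and 5736 and 6093.5 in DP G2/M cells. Levels below are therefore given as CPM of each group's own UMIs. A lower CPM is a smaller share of a group's UMIs, and deeper cells can still hold more UMIs each. Since the kit counts 1 end per molecule, CPM does not scale with transcript length.

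**Figure D1:**
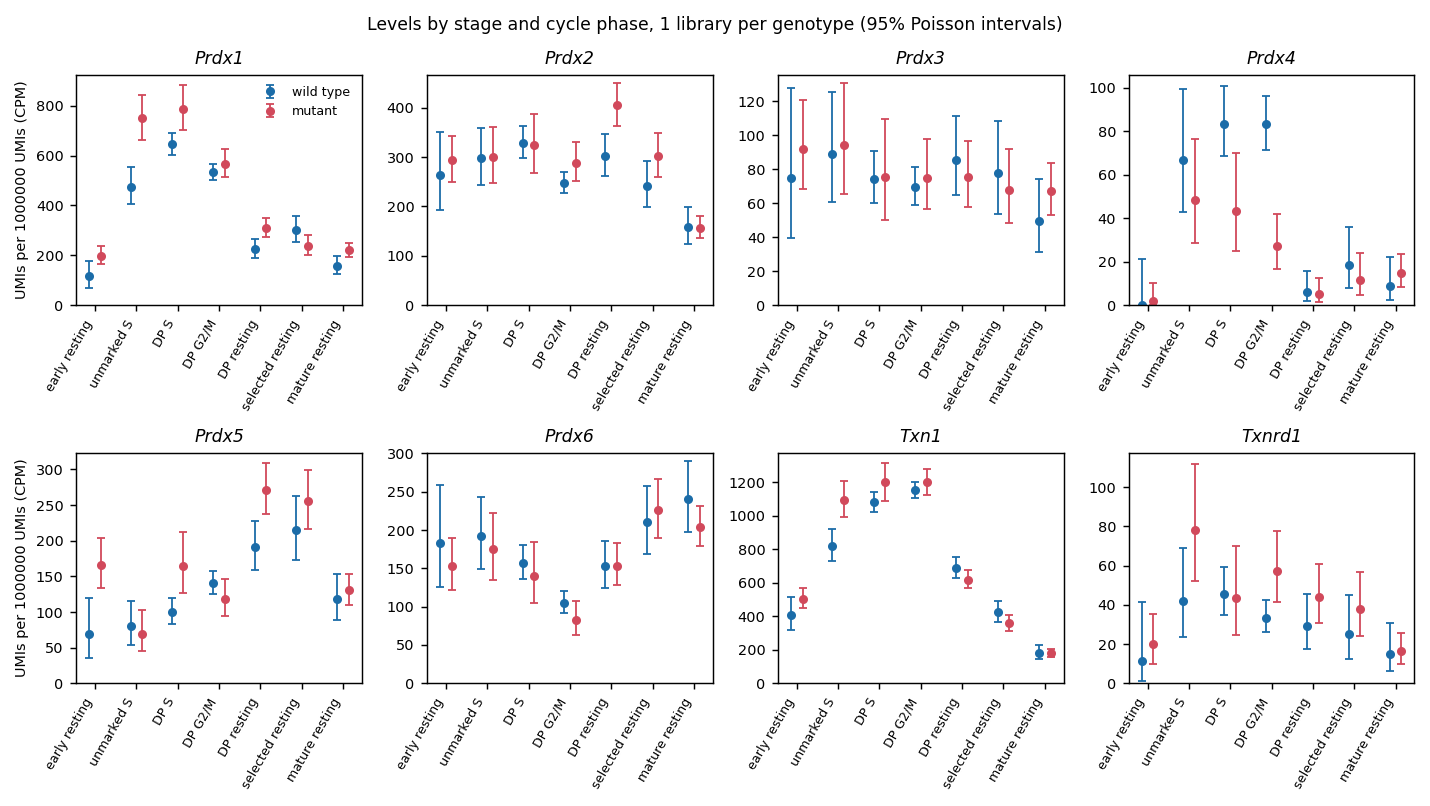
Level of each of the 8 genes (vertical axis, CPM, from 0) in 7 groups of cells set by stage and cycle phase (horizontal axis), in the wild type library (blue) and the mutant library (red), with points for the level over the group's summed UMIs and bars for the 95% Poisson interval. Prdx1, Prdx4 and Txn1 were higher in S and G2/M cells than in resting cells, Prdx6 was lowest in DP G2/M cells, and Prdx4 in DP G2/M cells was 83.3 CPM (wild type) and 27.3 CPM (mutant).

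Over all cells Prdx1 was the most abundant cytosolic peroxiredoxin transcript here, although Prdx2 was higher in DP resting and early resting cells of both libraries. Prdx1 followed the cell cycle in each library. In wild type its level was 645 CPM in DP S cells and 534 in DP G2/M cells, against 225 in DP resting cells, which is 2.87-fold (log2 1.52, interval 1.27 to 1.79) and 2.38-fold (log2 1.25, 1.00 to 1.51) higher. In mutant the levels were 789, 568 and 308 CPM, or 2.56-fold (log2 1.36, 1.11 to 1.61) and 1.84-fold (log2 0.88, 0.65 to 1.11) higher. Early and mature resting cells stood low: early resting cells had 115 and 198 CPM, and mature resting cells 157 and 220 CPM, wild type first. Selected resting cells had 301 and 237 CPM. That was above DP resting cells in wild type (log2 0.42, 0.07 to 0.77) and below them in mutant (log2 -0.38, -0.68 to -0.07). Selected or mature cells in S or G2/M were high too, with 482 CPM (371 to 617) in 24 wild type and 622 CPM (509 to 753) in 29 mutant cells. Whether these cells had left the DP stage before dividing was not tested.

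How common such a difference was gives the scale. From DP resting to DP S cells in wild type, 24.5% of 3305 tested genes were at least 1.5-fold higher and 34.5% at least 1.5-fold lower, and of the 7 genes of the set that were tested there, Prdx1, Prdx4 and Txn1 were higher and Prdx5 was lower. In mutant, 26.7% of 3631 genes were higher and 29.2% lower, with Prdx1 and Txn1 higher and Prdx5 lower among 6 tested, and Prdx4, at 43.2 and 4.87 CPM, below the level tested. A gene was tested with at least 50 CPM in at least 1 of the groups compared and at least 20 UMIs in both together, so a gene that is high in 1 group only enters through that group.

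Prdx2, a cytosolic peroxiredoxin best known from red blood cells, varied by less than 1.5-fold across the DP phases. Its level was 330 CPM in DP S, 303 in DP resting and 247 in DP G2/M cells of wild type, and 324, 406 and 289 CPM in mutant. It was lower in mature resting cells, at 159 and 157 CPM, which is 1.90-fold (log2 -0.93, -1.33 to -0.54) and 2.58-fold (log2 -1.37, -1.64 to -1.11) below DP resting cells. From DP resting to mature resting cells, 42% of 3068 tested genes in wild type and 46.1% of 3257 in mutant were at least 1.5-fold lower. A lower level in mature cells was thus frequent among all genes.

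Prdx6, which unlike the other members uses glutathione as its reductant and also has phospholipase activity, ran the other way. Its level was highest in mature resting (241 CPM) and selected resting cells (210 CPM) of wild type, with overlapping intervals, and lowest in DP G2/M cells (105 CPM). In mutant, selected and mature resting cells had 226 and 204 CPM and DP G2/M cells 83.2. Mature resting cells stood above DP resting cells by log2 0.65 (0.25 to 1.06) and 0.41 (0.09 to 0.73), wild type first, where 11% and 11.2% of tested genes were at least 1.5-fold higher. DP G2/M cells stood below DP S cells by log2 -0.58 (-0.86 to -0.30) and -0.76 (-1.31 to -0.19). The low level in DP G2/M cells is relative to their depth. In wild type, 268 DP resting cells held 100 Prdx6 UMIs and 319 DP G2/M cells held 226.

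Among the mitochondrial members, Prdx5 took a smaller share of the UMIs in dividing DP cells, though not fewer UMIs per cell. In wild type, 268 DP resting cells held 125 Prdx5 UMIs, 198 DP S cells 127 and 319 DP G2/M cells 303. In mutant, 398, 78 and 114 such cells held 223, 61 and 87. The wild type and mutant levels were 191 and 272 CPM in DP resting cells, 100.2 and 165 CPM in DP S cells, and 141 and 119 CPM in DP G2/M cells. The step from DP resting to DP S was log2 -0.93 (-1.30 to -0.56) and -0.72 (-1.15 to -0.31). Selected resting cells were as high as DP resting cells within counting error, at 214 and 256 CPM, and mature resting cells were lower at 118 and 130 CPM.

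Prdx3, the mitochondrial peroxiredoxin that thioredoxin 2 reduces, varied least. Over the same 7 groups its wild type levels lay between 49.4 and 89.0 CPM and its mutant levels between 66.9 and 94.1 CPM, and each interval overlapped that of the next group in the order. No step between DP resting, S and G2/M cells had an interval clear of 0: from resting to G2/M the wild type value was log2 -0.30 (-0.76 to 0.17) and the mutant value -0.01 (-0.56 to 0.54). The wild type interval reaches past 1.5-fold, so a moderate change is not detectable at this depth.

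Prdx4, the peroxiredoxin of the endoplasmic reticulum, was highest in dividing cells among the thymocyte groups. Wild type DP S cells held 106 UMIs (83.6 CPM, 68.5 to 101) and DP G2/M cells 179 UMIs (83.3 CPM, 71.6 to 96.5), while 268 DP resting cells held 4 UMIs (6.11 CPM, 1.67 to 15.7). The step from DP resting cells was log2 3.77 (2.38 to 5.68) to S and 3.77 (2.39 to 5.66) to G2/M. In mutant the same groups held 16 UMIs (43.2 CPM, 24.7 to 70.2), 20 UMIs (27.3 CPM, 16.7 to 42.1) and 4 UMIs (4.87 CPM, 1.33 to 12.5), a step of log2 3.15 (1.52 to 5.19) to S and 2.49 (0.91 to 4.49) to G2/M. The higher level in dividing than in resting DP cells was thus present in each library.

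Outside the DP range, Prdx4 was low in resting cells. Wild type and mutant selected resting cells had 18.2 and 11.5 CPM, and mature resting cells 8.59 and 14.6 CPM. Early resting cells had 0 UMIs in 39 wild type cells, where 3 UMIs would give 17.2 CPM, and 1 UMI in 181 mutant cells. Unmarked S cells, of which there were 36 and 49, had 66.8 and 48.4 CPM, and 25% of the wild type UMIs there came from 1 cell.

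The share of cells with a Prdx4 UMI was higher in dividing than in resting DP cells in each library, also at equal depth. At equal depth the mutant shares rest on few cells with a UMI, so the order there is uncertain. Unthinned, 33.8% of wild type DP S cells, 35.1% of DP G2/M cells and 1.49% of DP resting cells had a Prdx4 UMI, and in mutant 17.9%, 14.0% and 1.01%. With each cell thinned to 1500 UMIs the shares were 10.6%, 10.97% and 1.12% in wild type and 3 of 75 cells, 4.46% and 0.580% in mutant, and 97 mutant cells below that depth were left out. No cell type that lacks the gene could be named as background. The lowest group, early resting with median depths of 4103 and 2632 UMIs, had 0 of 39 and 0 of 177 thinned cells with a UMI.

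Plasma cells, which secrete antibody and load the endoplasmic reticulum heavily, held a part of the wild type Prdx4 counts. Of 390 wild type Prdx4 UMIs, 25 (6.41%) came from 2 cells with at least 5 UMIs of plasma cell markers, a level of 3057 CPM (1978 to 4512). A single cell held 17 of them, beside 537 UMIs of the plasma list. The 3 mutant cells with such markers held 0 Prdx4 UMIs, with an interval that reaches 281 CPM. Over other cells of any phase the plasma list summed to 2559 CPM in wild type and 99.6 CPM in mutant. The mutant cells thus carried far less of the plasma list, and Prdx4 in plasma cells cannot be compared between the libraries. These 2 wild type cells lie in the other resting group, where Prdx4 was 146 CPM against 6.24 CPM in the mutant cells, and other cells of any phase without plasma markers had 33.7 and 18.8 CPM.

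Between genotypes, Prdx4 over all cells held 390 wild type UMIs (58.9 CPM, 53.2 to 65.1) and 138 mutant UMIs (21.9 CPM, 18.4 to 25.9). The log2 ratio was -1.43 (-1.72 to -1.14), or 2.69-fold lower in mutant. This is the difference for which the set was picked, the 8th lowest of 2961 tested genes. Of these genes 4.39% were at least 1.5-fold lower in mutant and 7.67% at least 1.5-fold higher, and Prdx4 was the 1 of the 7 tested members past that limit. Prdx4 reached 50 CPM in the wild type library only, both here and within DP S and DP G2/M cells. It was thus ranked through the library in which it was higher. Txnrd1, below 50 CPM in both libraries, was not tested. After Prdx4, the members farthest from 0 were Txn1 at -0.40 and Prdx5 at 0.26.

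Within single groups, the mutant level of Prdx4 was lower by more than the counting error in dividing DP cells. Within DP S cells the log2 ratio was -0.95 (-1.81 to -0.19) and within DP G2/M cells -1.61 (-2.36 to -0.94), where 3.76% and 3.75% of tested genes were at least 1.5-fold lower. Within resting cells too few UMIs were counted to tell a difference: the log2 ratio was -0.33 (-2.75 to 2.10) in DP, -0.66 (-2.36 to 1.00) in selected and 0.76 (-0.85 to 2.79) in mature cells. Over all thymocytes it was -0.05 (-0.92 to 0.85) at rest, -0.58 (-1.06 to -0.11) in S and -1.29 (-1.82 to -0.79) in G2/M. The median tested gene had a log2 ratio of 0.25 in DP S and 0.22 in DP G2/M cells, relative to which Prdx4 was at -1.20 and -1.83.

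**Figure D2:**
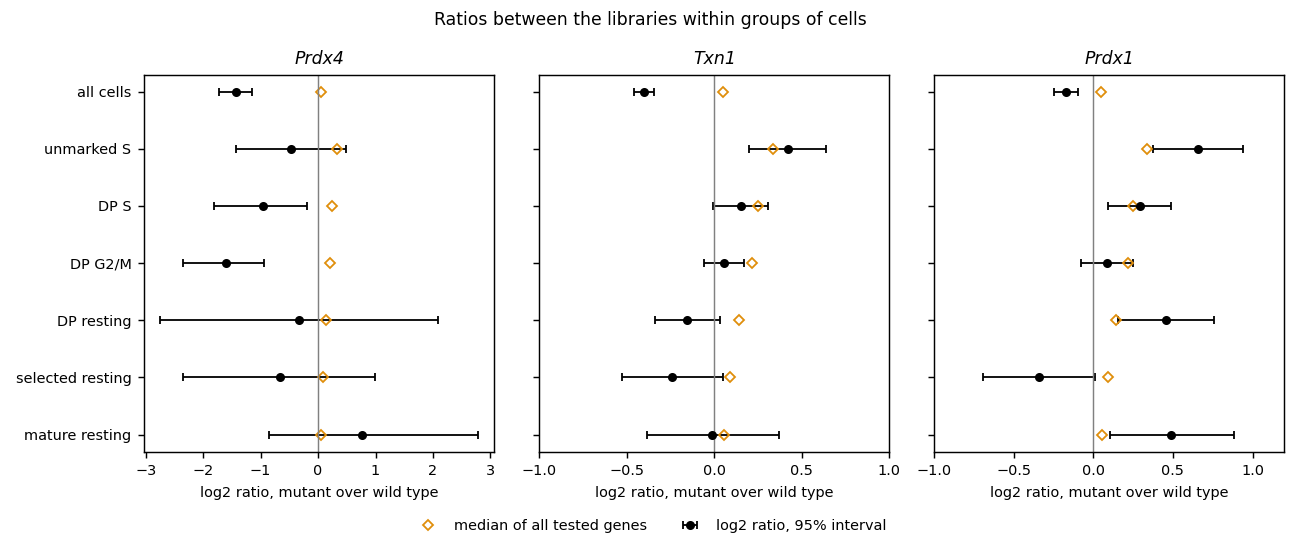
Log2 ratio of mutant over wild type (horizontal axis, a different range in each panel) for Prdx4, Txn1 and Prdx1 over all cells and within 6 groups of cells (vertical axis), with points and bars for the ratio and its 95% counting interval and diamonds for the median of all tested genes. Prdx4 was below the median gene in DP S and DP G2/M cells, while Txn1 was -0.40 over all cells and between -0.24 and 0.42 within the groups.

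Prdx4 was also taken by depth and by cluster, in groupings chosen after the values were seen. In DP cells in S or G2/M under 6000 UMIs the levels were 84.2 CPM in 285 wild type and 19.7 CPM in 108 mutant cells, and at 6000 or more 83.1 CPM in 232 and 38.8 CPM in 84 cells. The log2 ratios were -2.10 (-3.45 to -0.996) and -1.10 (-1.72 to -0.53), with overlapping intervals. The highest level of a large cluster was 133 CPM (111 to 159), in cluster 7, which was led by Hist1h2ap, Rrm2 and Tyms and held 157 wild type and 6 mutant cells. Cluster 13, also led by Tyms, Hist1h2ap and Rrm2, held 2 wild type and 92 mutant cells, and its mutant cells had 36.4 CPM (22.8 to 55.2). The wild type cells of cluster 7 held 32.6% of all wild type Prdx4 UMIs. In the 2 cycling clusters that both libraries filled, levels were 65.6 and 34.3 CPM in cluster 3, led by Hells and Ung, and 57.7 and 36.9 CPM in cluster 2, led by Ube2c. The log2 ratios there were -0.93 (-1.67 to -0.26) in cluster 3 and -0.65 (-1.32 to -0.01) in cluster 2. The clusters were built from 2000 variable genes without the 8 members, and clusters 7 and 13 were each nearly all of 1 library.

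In 1 small group Prdx4 was higher in mutant. Selected or mature cells in S or G2/M, 24 in wild type and 29 in mutant, held 4 UMIs (30.6 CPM, 8.35 to 78.4) and 23 UMIs (136 CPM, 86.4 to 205). Of the 23 UMIs, 5 came from 1 mutant cell with 15164 UMIs in total, where the group median was 5807. The 29 mutant cells gave 16.7% of all mutant Prdx4 UMIs. These cells were picked out after their values were seen, and at most 10 cells of each library fell into any of the 4 groups pooled.

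Prdx4 made up less of the peroxiredoxin transcripts in mutant, a share that rests on the same UMIs by which the set was picked. Of the UMIs of all 6 peroxiredoxins together it held 5.25% (4.75 to 5.78) of the wild type and 2.03% (1.71 to 2.39) of the mutant total. In DP G2/M cells it held 7.06% (6.09 to 8.13) and 2.35% (1.44 to 3.61). The nearest genes on chromosome X with more than 100 UMIs differed less: over all cells Sat1, a polyamine acetyltransferase, had a log2 ratio of 0.32 (0.12 to 0.52), Acot9, an acyl-CoA thioesterase, 0.31 (-0.01 to 0.64), and Sms, spermine synthase, -0.20 (-0.36 to -0.04).

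Thioredoxin, Txn1, had the highest CPM of the 8 genes over all cells in each library. It was higher in dividing than in resting DP cells. Its level was 1081 CPM in DP S, 1154 in DP G2/M and 688 in DP resting cells of wild type, and 1200, 1199 and 619 CPM in mutant. The step from DP resting cells was log2 0.65 (0.50 to 0.81) to S and 0.75 (0.60 to 0.89) to G2/M in wild type and 0.96 (0.77 to 1.14) and 0.96 (0.80 to 1.12) in mutant. The level then went down along the resting stages, from DP to selected cells (424 and 359 CPM) and to mature cells (183 and 181 CPM), which was 3.77-fold (log2 -1.91, -2.27 to -1.58) and 3.42-fold (log2 -1.77, -2.01 to -1.54) below DP resting cells.

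Over all cells Txn1 was lower in mutant, at 649 against 858 CPM, a log2 ratio of -0.40 (-0.46 to -0.34) that is not past 1.5-fold. Within DP S cells the ratio was 0.15 (-0.01 to 0.31), within DP G2/M cells 0.06 (-0.06 to 0.17), within DP resting cells -0.15 (-0.34 to 0.03) and within mature resting cells -0.01 (-0.38 to 0.37). It was -0.24 within selected resting and 0.42 within unmarked S cells. The median tested gene was at 0.25 in DP S, 0.22 in DP G2/M and 0.14 in DP resting cells, above Txn1 in each. In unmarked S cells the median was 0.34, below Txn1. With each stage and phase given its wild type share of cells in both libraries, the ratio over all cells was 0.07.

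**Figure D3:**
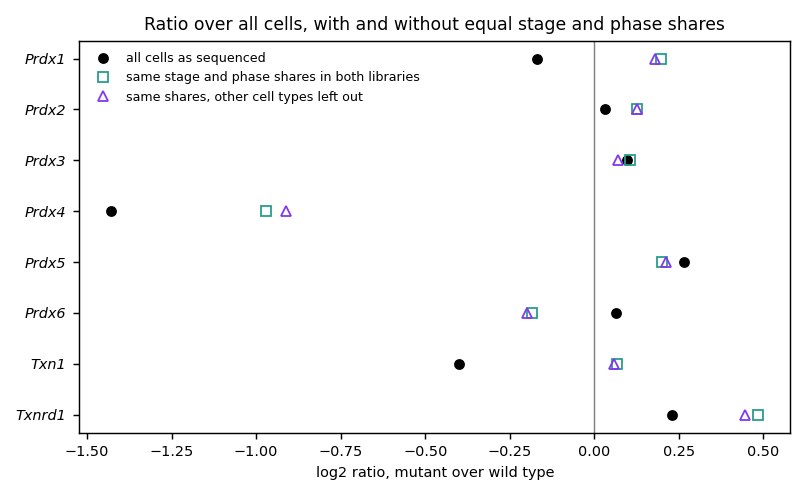
Log2 ratio of mutant over wild type over all cells (horizontal axis) for each of the 8 genes (vertical axis), for the cells as sequenced (circles), with every stage and phase given its wild type share in both libraries (squares), and the same without cells carrying markers of other types (triangles). Txn1 moved from -0.40 to 0.07 and Prdx1 from -0.17 to 0.20, while Prdx4 moved from -1.43 to -0.97.

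Prdx1 showed the same movement. Over all cells the mutant level was 397 CPM against 446 CPM, which is log2 -0.17 (-0.25 to -0.09), yet within groups it was 0.46 (0.16 to 0.76) in DP resting, 0.29 (0.09 to 0.48) in DP S, 0.09 (-0.08 to 0.25) in DP G2/M and 0.49 (0.11 to 0.88) in mature resting cells. Relative to the median gene of each group these ratios were 0.31, 0.04, -0.13 and 0.43. In selected resting cells it was -0.34 (-0.69 to 0.01). With equal shares of stages and phases the ratio over all cells was 0.20. For Prdx4 the same step gave -0.97, or -0.91 without the cells of other types.

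Of the other peroxiredoxins, 3 had ratios near 0 over all cells. The log2 ratio was 0.03 (-0.07 to 0.13) for Prdx2, 0.10 (-0.09 to 0.28) for Prdx3 and 0.06 (-0.06 to 0.19) for Prdx6. Prdx5 was higher in mutant, at 155 against 129 CPM, with a log2 ratio of 0.26 (0.13 to 0.40). Within DP resting cells Prdx5 was at 0.51 (0.18 to 0.84) and Prdx2 at 0.42 (0.16 to 0.68), which relative to the median gene of that group is 0.37 and 0.28. In DP S cells Prdx5 was at 0.72 (0.25 to 1.17), past 1.5-fold where 19.2% of tested genes were, but with cells thinned to 1500 UMIs it was -0.14. In early resting cells Prdx5 had 12 UMIs in 39 wild type and 92 UMIs in 181 mutant cells (68.9 and 166 CPM), a ratio of 1.27 (0.39 to 2.27), or 0.98 relative to the median gene. At least 1.5-fold higher levels in mutant were found for 30.5% of tested genes in that group.

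Txnrd1, the reductase, rested on 223 and 249 UMIs and varied over the groups within wide intervals. In wild type it was 45.8 CPM in DP S, 33.5 in DP G2/M, 29.0 in DP resting and 15.03 in mature resting cells, and in mutant 43.2, 57.3, 43.8 and 16.3 CPM. Mature resting cells stood below DP resting cells by log2 -0.95 (-2.44 to 0.36) and -1.43 (-2.31 to -0.59). Over all cells its ratio between the libraries was 0.23 (-0.04 to 0.50), and in DP G2/M cells it was 0.77 (0.19 to 1.34), from 72 and 42 UMIs, where 13% of tested genes were at least 1.5-fold higher. Relative to the median gene of that group it was 0.56.

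Over the 20 combinations of library, stage and phase with at least 30 cells, the 8 genes did not share 1 pattern. On the log2(CPM + 5) scale Txn1 and Prdx1 had a Pearson correlation of 0.86, Txnrd1 had 0.79 with Prdx1 and 0.67 with Txn1, and Prdx6 had -0.73 with Txn1. Prdx4 had 0.54 with Prdx1 and 0.39 with Txn1, and 0.06 with Txnrd1. Among the 5 genes most like Prdx4 of 2851 were Nrm (0.78), which encodes the nuclear envelope protein nurim, Dnmt1 (0.77), the maintenance DNA methyltransferase, Hsp90b1 (0.77), an endoplasmic reticulum chaperone, and Cox8a (0.73), a subunit of cytochrome oxidase. In the 9 wild type points alone the nearest were Pdia6 (0.95), a protein disulfide isomerase, and Hsp90b1 (0.95), and in the 11 mutant points alone Uba2 (0.92), a subunit of the SUMO activating enzyme. The points share libraries and depth, and the wild type points include the group with the plasma cells, so these values only describe these libraries.

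Around this system, 3 of 39 tested genes of 5 lists were past 1.5-fold over all cells, where 12.1% of all tested genes were. The median of all tested genes was 0.05 on the log2 scale and that of the 8 members was 0.05. Of the endoplasmic reticulum folding list, the compartment of PRDX4, 14 of 22 measured genes were tested, none was past 1.5-fold in either direction, and the median was 0.12. Its highest were Pdia3 at 0.42 (0.29 to 0.55), a disulfide isomerase, and Xbp1 at 0.36 (0.16 to 0.55), a transcription factor of the unfolded protein response. Its lowest were Sdf2l1 at -0.17 (-0.40 to 0.06) and the chaperone gene Hsp90b1 at -0.06 (-0.20 to 0.07).

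Among 11 tested genes of other thioredoxin-fold proteins and regulators, 2 were at least 1.5-fold higher in mutant, none was lower, and the median was 0.03. Of these, Sesn3, a sestrin, was at 0.94 (0.68 to 1.203), from 28.4 to 54.4 CPM. Txnip, which binds and inhibits thioredoxin, was at 0.68 (0.47 to 0.89), from 47.9 to 76.7 CPM. Both reached the 50 CPM needed for testing in the mutant library only. They thus entered the count through the library in which they were higher. Within groups Txnip stayed under 1.5-fold, at 0.44 in DP resting, 0.24 in DP S, 0.30 in DP G2/M, 0.51 in selected resting and 0.39 in mature resting cells. Sesn3 was at 0.82 in DP resting, 0.14 in DP G2/M, 0.37 in selected resting and 0.49 in mature resting cells, and at -2.22 in DP S cells from 16 and 1 UMIs. The interval of each of these within-group ratios of Txnip and Sesn3 included 0. The lowest were Txndc17 at -0.16 (-0.31 to -0.01) and Txnl1 at -0.08 (-0.21 to 0.06).

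The glutathione list had 5 tested genes, of which 1 was at least 1.5-fold higher, with a median of 0.20. Glutathione reductase, Gsr, was 137 CPM in the mutant against 75.7 CPM in the wild type library, log2 0.86 (0.70 to 1.02). Within groups Gsr was at 0.64 (-0.06 to 1.38) in DP resting, 0.95 (0.56 to 1.34) in DP S and 1.13 (0.76 to 1.49) in DP G2/M cells. It was -0.21 (-1.28 to 0.89) in selected resting and 0.38 (-0.81 to 1.73) in mature resting cells. The peroxidase Gpx1 was at 0.43 (0.31 to 0.55), and the lowest were Gclm, a subunit of the enzyme that starts glutathione synthesis, at -0.20 (-0.42 to 0.03) and the lipid peroxidase Gpx4 at -0.15 (-0.23 to -0.07). Below 50 CPM in both libraries, and so not tested, were Slc7a11, which imports cystine for glutathione synthesis, and Gsto1, a glutathione transferase, both named after their values were seen. Slc7a11 had 241 wild type and 28 mutant UMIs, a ratio of -3.03 (-3.65 to -2.47), and Gsto1 had 192 and 88, a ratio of -1.05 (-1.44 to -0.68). Of the superoxide and peroxide enzymes, none of 4 tested passed 1.5-fold: Cyba, a subunit of NADPH oxidase, was at 0.54 (0.45 to 0.63), the mitochondrial Sod2 at -0.09 (-0.27 to 0.09), Park7 at -0.16 (-0.25 to -0.08) and the cytosolic Sod1 at -0.42 (-0.61 to -0.24). Of the NRF2 regulators and targets, none of 5 tested did: Keap1, the inhibitor of NRF2, was at 0.42 (0.20 to 0.63), Taldo1 at 0.28 (0.18 to 0.38), Fth1 at 0.19 (0.15 to 0.23) and Tkt at -0.13 (-0.26 to 0.00).

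**Figure D4:**
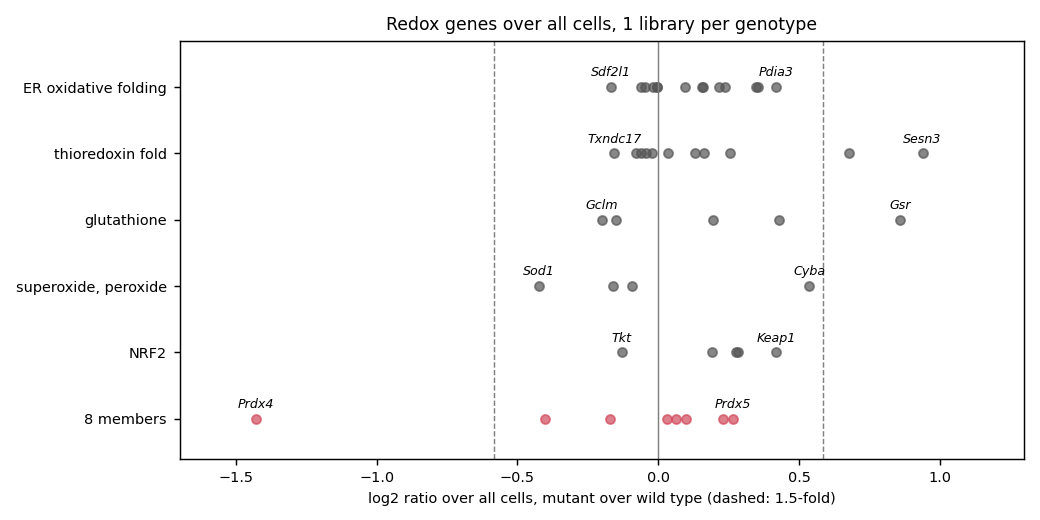
Log2 ratio of mutant over wild type over all cells (horizontal axis) for the tested genes of 5 lists of redox and folding genes and for the 8 members (rows), 1 point per gene, with the lowest and highest gene of each row named and dashed lines at 1.5-fold. Among the genes plotted, Prdx4 at -1.43 was the 1 point beyond 1.5-fold on the lower side, and Sesn3, Gsr and Txnip lay beyond it on the higher side.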

How the data were processed

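Single-cell RNA was measured in 1 wild type and 1 mutant thymocyte library. Each deposited table holds whole-number UMI counts, cells by gene symbols, that the authors made with Cell Ranger on mm10, per the submitters' processing notes; no version is given in the sources used here. Barcodes with at least 400 genes and at most 10% mitochondrial UMIs were kept (5 and 6 left out), and Scrublet (scanpy 1.11.5) calls, 1 and 4, were left out. It called under 0.5% of cells, so doublets remain, and the top 5% of doublet scores was left out as an alternative. UMIs were summed per library and group. CPM have Poisson, ratios conditional binomial and shares Clopper-Pearson intervals, at 95% (scipy 1.17.1). Groups with at least 30 cells in each library were compared, and no test between genotypes was possible. Clusters came from Leiden (2000 variable genes without the members, 30 components, resolution 1).

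The members and gene lists were chosen with earlier results of these data known. All 8 members are described; from each list the 2 highest and 2 lowest ratios are named, and the 5 genes most correlated with Prdx4, of which 1 is not reported here. GENCODE for GRCm38, the same build as mm10, matched 26646 symbols. The listed folding gene Selenof is not among the symbols under that name. Poisson counts were simulated at the depth of DP G2/M cells. Intervals of genes simulated as 2-fold higher covered the true value in 96% of 100 such genes, among 2789 simulated. The simulation held no variation between cells or libraries beyond counting error, so it checks the calculation only.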

Additional observations from a re-analysis of the deposited data

How the results depend on the processing

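The alternatives were another scaling, a stricter filter, a shared lower limit of UMIs, thinning to 1500 UMIs, other marker limits, cluster-based classes, no high doublet scores and no cells of other types. Over all cells the log2 ratio of Prdx4 lay between -1.67 and -0.91 in 13 settings. Equal stage and phase shares gave -0.97 for Prdx4, 0.20 for Prdx1 and 0.066 for Txn1, and, chosen after seeing the data, the same without other cell types gave -0.91, 0.18 and 0.057. Also chosen then, leaving out plasma marker cells gave -1.33 for Prdx4. The mean over cells gave -0.47 for Txn1. The alternatives for Prdx4 in DP S cells lay between -1.60 and -0.84. The -0.84 was the value over all cycling clusters, which pool cells of any stage and phase. It also served as the alternative for DP G2/M cells. Prdx5 in DP S cells changed sign, to -0.14 with thinned cells, and over all cycling clusters it was -0.095. The count of members past 1.5-fold was also 1 at a limit of 2-fold and among members of at least 50 CPM, the settings in which it was recomputed, and the glutathione count went from 1 to 3 with genes of at least 20 CPM, by Slc7a11 and Gsto1, both lower in mutant. The causes were not tested. No paired analysis was possible because each genotype has 1 library. At this depth Prdx4 in resting cells and Txnrd1 in most groups rest on few UMIs, and differences of 1.5-fold are not detectable there.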

Other observations

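Early cells in S or G2/M, 12 in the wild type and 52 in the mutant library, were pooled after their values were seen. Their Txn1 levels were 623 CPM (456 to 831) and 903 CPM (793 to 1024), and their Prdx1 levels 352 CPM (230 to 516) and 459 CPM (382 to 547), wild type first. Prdx4 was low in the same cells: 0 wild type UMIs, with an interval reaching 49.9 CPM, and 4 mutant UMIs, or 14.8 CPM (4.03 to 37.9). The pooled DP cells in S or G2/M, by the same measure, had 83.4 CPM (74.0 to 93.7) and 32.6 CPM (22.9 to 45.2) of Prdx4. In the wild type library the interval of the early cells lies below that of the DP cells, and in the mutant library the intervals overlap.

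Cells with markers of other types and under 5 UMIs of the plasma list, 51 and 126 of them, had 245 CPM (194 to 305) and 338 CPM (294 to 386) of Prdx1, 193 CPM (148 to 247) and 181 CPM (150 to 217) of Prdx6, and 33.7 CPM (16.8 to 60.2) and 18.8 CPM (9.69 to 32.8) of Prdx4.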
